A study of Mus musculus with 16 samples.

Results

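A set of 9 genes of the pathway by which cells detect nucleic acids in the cytosol were followed in RNA sequencing of mouse small intestinal organoids, which are epithelial cultures grown from crypts. The genes were taken from a list of sensors, adaptors and kinases and not by a rule on their measured values, but with earlier results of these data known. All 9 were among the 49585 genes in the table of counts: Tmem173 (encoding STING), Ddx58 (RIG-I), Ifih1 (MDA5), Mavs, Tbk1, Ikbke, Irf3, Trex1 and Zbp1. The organoids came from mice with floxed Atg16l1 alleles on a C57BL/6 background. Atg16l1 ΔIEC organoids (KO in the labels) also carried a Cre recombinase under the villin promoter, which deletes the gene in intestinal epithelial cells, and Atg16l1 fl/fl organoids (WT in the labels) carried the same floxed alleles without Cre. Each genotype was left untreated or given recombinant mouse IL-22 at 10 ng/ml for a day, with 4 cultures in each of the 4 groups. By their label numbers the cultures stem from 2 lines of organoids in either genotype, each line giving 2 cultures untreated and 2 treated, so that cultures 1 and 2 of a group belong to the first line and cultures 3 and 4 to the second. The mice were young adults with littermate controls, their number per line was not given in the labels, and p-values over cultures measure the spread of cultures from only 2 lines in each genotype.

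Double-stranded DNA in the cytosol is bound by the enzyme cGAS, whose product, a cyclic dinucleotide, activates STING on the endoplasmic reticulum. Double-stranded RNA is bound by the helicases RIG-I and MDA5, which signal through MAVS on mitochondria. Both routes meet at the kinases TBK1 and IKKε, which phosphorylate the transcription factor IRF3 and so turn on interferon genes. TREX1 degrades cytosolic DNA, and ZBP1 binds nucleic acids in the Z conformation and engages the kinase RIPK3. The IL-22 receptor on epithelial cells signals mainly through STAT3. ATG16L1 is a core protein of autophagy, and the comparisons here ask how IL-22 and the loss of Atg16l1 changed the transcripts of the sensing pathway itself.

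The sequences at the starts of these genes were searched for the binding letters of STAT and of interferon-regulated factors, because IL-22 acts through STAT3 and because RIG-I and MDA5 are known as interferon-induced genes. RefSeq windows (GRCm38.p6, 250 bases before to 50 after a start, 300 in all) were present for 7 of the 9 genes and for Mb21d1, the gene of cGAS, as 9 windows, and Zbp1 and Tmem173 had none. The GAS letters TTCNNNGAA, searched on both strands, were in 0 of these 9 windows and in 8.3% of all 32851 windows. The interferon-stimulated response element core, searched on both strands as 2 copies of GAAA with any 2 bases between them, was found in 1 window of Ddx58 and 1 of Ifih1, against 3.44% of all windows. As the GAS letters had no match, the 2 motifs could not overlap. Both matches of the core are printed with up to 10 bases on either side, in capitals, on the strand of the gene. The Ddx58 stretch lies at chr4:40239804-40239833 on the minus strand, with the match at bases 3 to 12 of the transcript and its letters on the opposite strand. The Ifih1 stretch lies at chr2:62646206-62646233 on the minus strand, with the match at bases 33 to 42. The 250 bases before the start of Tbk1 (chr10:121586795-121587044, minus strand) are printed as well, since Tbk1 was the only gene among those raised by IL-22 that had a window.
Ddx58: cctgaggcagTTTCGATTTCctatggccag
Ifih1: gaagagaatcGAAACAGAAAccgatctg
Tbk1: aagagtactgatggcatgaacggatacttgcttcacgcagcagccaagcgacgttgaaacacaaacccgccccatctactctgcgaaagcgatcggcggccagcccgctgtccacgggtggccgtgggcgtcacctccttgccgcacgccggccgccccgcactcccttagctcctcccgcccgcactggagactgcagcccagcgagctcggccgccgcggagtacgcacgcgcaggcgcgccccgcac
The Tbk1 stretch held neither motif and is therefore in lower case throughout. A match of letters is a description of the sequence and not evidence of binding.

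Reads counted on genes numbered 2135000 to 5574860 per culture (median 3499280), and 12559 genes had enough counts to be tested. The fl/fl groups averaged 40.2 ± 7.24 (untreated) and 44.95 ± 6.33 (IL-22) CPM of Atg16l1, the counts per 1000000 reads counted on genes after TMM scaling (SD, n = 4), and the ΔIEC groups 2.67 ± 1.20 and 1.84 ± 2.76 CPM, so every library matched its genotype label. Markers of other cell types were near 0: 9 of 12 immune markers had at most 3 counts in every culture (4 of them, including Cd3e, had none), and so did 8 of 9 stromal and endothelial markers. The exceptions were Csf1r (20 to 58 counts), Cd68 (1 to 24), Itgam (0 to 17) and Pecam1 (1 to 11). RNA of epithelial cell type markers moved with the groups. Summed enterocyte markers fell from 2987–3394 CPM to 836–1281 CPM with IL-22 in fl/fl and from 3055–3703 to 972–1536 CPM in ΔIEC organoids. Of 8 such markers, 7 and 5 were called lower at an adjusted p under 0.01, beside 10.2% and 7.65% of all tested genes. Of 8 general epithelial markers, 6 and 2 were called higher, beside 10.6% and 9.83%. Summed stem cell markers fell as well (1717–2137 to 913–1022 CPM and 2309–2566 to 986–1326 CPM), with 3 and 5 of 6 called lower. Between genotypes 3 of the 6 were called higher in untreated ΔIEC organoids, and 3 higher and 1 lower after IL-22. Paneth markers were lower in ΔIEC than in fl/fl organoids, at 3168–4156 against 5625–7967 CPM untreated and 4002–4819 against 7135–9555 CPM with IL-22. Of 7 Paneth markers, 3 and 5 were called lower, beside 5.98% and 9.84% of all tested genes. Goblet markers were lower too, at 1506–2013 against 2116–3344 CPM untreated and 1048–1709 against 2038–3042 CPM treated, with 4 of 7 called lower in both comparisons. Enteroendocrine markers stood at 212–363 against 359–616 CPM untreated and 221–475 against 498–680 CPM treated, with 1 and 3 of 6 called lower. In bulk RNA a change in the share of a cell type and a change in RNA per cell cannot be told apart, and the part of these shifts in the results below was not tested.

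IL-22 raised 3 of the 8 testable genes, and they were the same 3 in both genotypes: Tmem173, Zbp1 and Tbk1. None of the 8 fell. Differences were tested with edgeR's quasi-likelihood test over all 12559 genes and called at an adjusted p under 0.01, by which IL-22 raised 10.6% and lowered 10.2% of tested genes in fl/fl organoids (20.8% in all), and raised 9.83% and lowered 7.65% in ΔIEC organoids (17.5% in all). The median log2 fold change of the 8 genes was 0.22 in fl/fl and 0.49 in ΔIEC organoids, beside -0.05 and -0.01 for all tested genes. Zbp1 had 1 to 5 (fl/fl) and 1 to 13 (ΔIEC) counts untreated, and 25 to 64 and 53 to 81 treated. It thus passed the filter on low counts through the treated groups, where it is high. The count of 3 and the medians include it and are not a test of the 8 genes as a set. With the cultures of each line summed (2 lines against 2, which called 3.91% and 4.58% of 13871 genes), 2 of the 3 passed in each genotype and they were not the same 2: Tmem173 and Tbk1 in fl/fl, and Tmem173 and Zbp1 in ΔIEC organoids. Trex1, the ninth gene, had no counts in any culture.

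**Figure D1:**
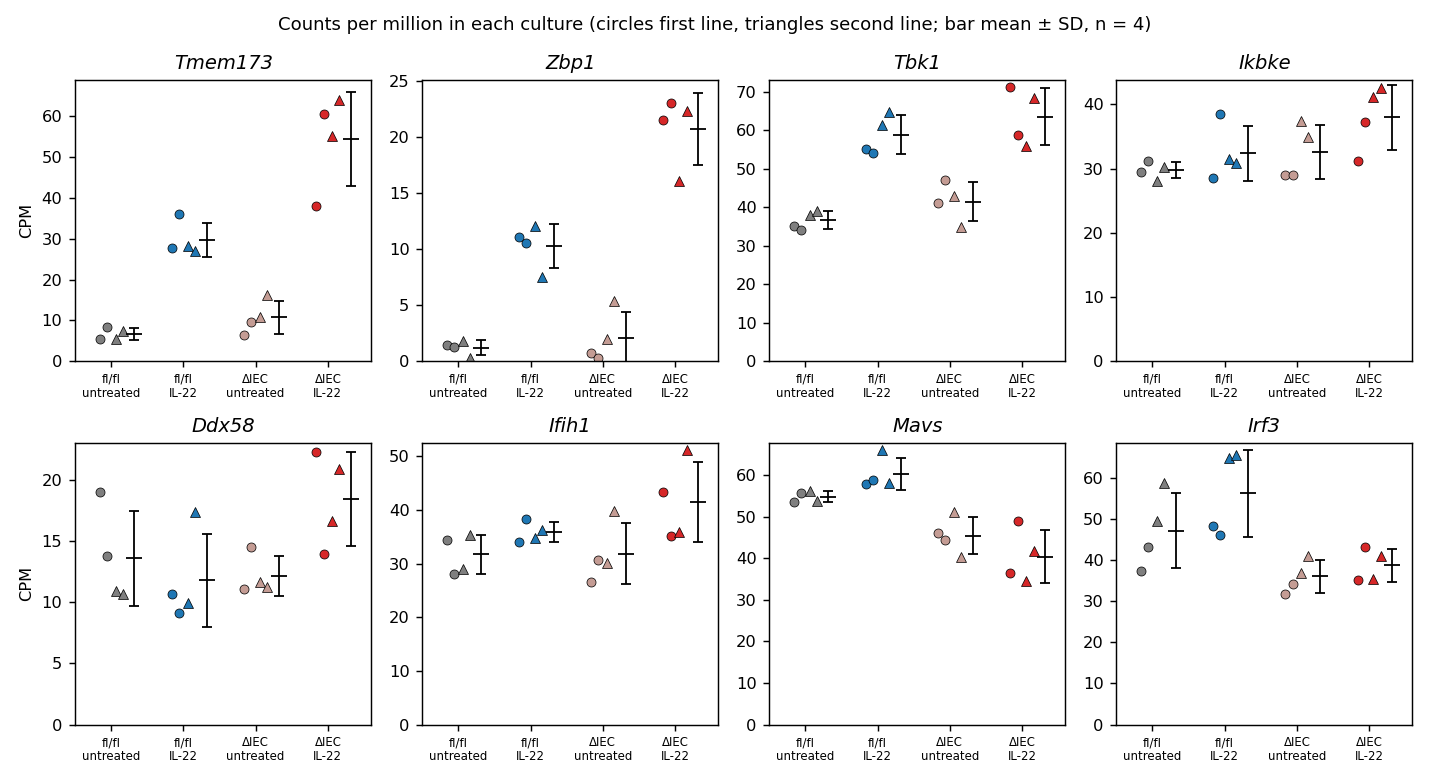
CPM of the 8 counted genes in each of the 16 cultures (circles, first line of a genotype, triangles, second line), with the mean and SD of each group of 4 beside the points. Tmem173, Zbp1 and Tbk1 lie higher in every IL-22–treated culture than in every untreated culture of the same genotype, and Mavs lies lower in every ΔIEC culture than in every fl/fl culture of the same treatment.

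Tmem173 (ENSMUSG00000024349.9, chromosome 18, 35733679 to 35740554, minus strand, GRCm38) encodes the adaptor at which DNA sensing converges. Untreated fl/fl cultures 1 to 4 had 5.55, 8.42, 5.44 and 7.49 CPM, and IL-22–treated ones 27.7, 36.0, 28.3 and 27.0 CPM. In ΔIEC organoids, untreated cultures had 6.37, 9.60, 10.9 and 16.2 CPM and treated ones 38.1, 60.5, 55.3 and 64.0 CPM. Treated and untreated cultures did not overlap in either genotype, and the lowest treated ΔIEC culture lay above the highest treated fl/fl culture. The group means rose from 6.73 ± 1.47 to 29.8 ± 4.20 CPM in fl/fl (log2 fold change 2.11, SE 0.23, adjusted p = 1.10e-06) and from 10.8 ± 4.09 to 54.5 ± 11.5 CPM in ΔIEC organoids (2.42, SE 0.21, adjusted p = 4.53e-08). By p-value it ranked 188 of 12559 genes in fl/fl and 97 in ΔIEC organoids. A rise was seen in each line on its own, at 4.56-fold and 4.28-fold in the fl/fl lines and 6.18-fold and 4.41-fold in the ΔIEC lines. The IL-22 effects of the genotypes did not differ past the threshold: their difference was 0.30 on the log2 scale (95% interval -0.38 to 0.99, adjusted p = 0.909).

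Zbp1 (ENSMUSG00000027514.14, chromosome 2, 173206612 to 173218923, minus strand) showed the greatest fold change of the 8 genes from the lowest starting level. Untreated fl/fl cultures held 5, 5, 4 and 1 counts (1.46, 1.28, 1.81 and 0.268 CPM), and treated ones 28, 45, 64 and 25 counts (11.1, 10.5, 12.0 and 7.49 CPM). Untreated ΔIEC cultures held 3, 1, 5 and 13 counts (0.707, 0.246, 2.01 and 5.40 CPM), and treated ones 53, 81, 53 and 77 counts (21.5, 23.0, 16.02 and 22.3 CPM). All treated cultures of a genotype lay above all its untreated ones, and the untreated level rested on few counts. The log2 fold change was 3.15 (SE 0.47, adjusted p = 4.07e-05) in fl/fl and 3.56 (SE 0.41, adjusted p = 1.81e-06) in ΔIEC organoids. With summed lines the adjusted p was 0.0105 in fl/fl, past the threshold no longer, and 0.00446 in ΔIEC organoids. The size in ΔIEC depended on the line: 5.40 on the log2 scale without the second line, whose untreated cultures held 18 of the 22 counts, and 2.37 without the first. The difference between genotypes was 0.41 with a wide 95% interval of -1.21 to 2.04 (adjusted p = 0.968).

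Tbk1 (ENSMUSG00000020115.2, chromosome 10, 121546455 to 121586787, minus strand), the kinase that STING and MAVS recruit, rose by a smaller factor. Untreated fl/fl cultures had 35.1, 34.2, 38.1 and 39.1 CPM and treated ones 55.0, 54.2, 61.4 and 64.7 CPM. Untreated ΔIEC cultures had 41.0, 47.0, 43.0 and 34.9 CPM and treated ones 71.3, 58.8, 55.9 and 68.3 CPM. The groups did not overlap in either genotype. The log2 fold change was 0.69 (SE 0.11, adjusted p = 5.16e-05) in fl/fl and 0.60 (SE 0.10, adjusted p = 2.06e-04) in ΔIEC organoids, and the difference of these effects was -0.09 (95% interval -0.40 to 0.22, adjusted p = 0.961). The 4 lines gave 1.58-, 1.63-, 1.48- and 1.59-fold rises. The ΔIEC call did not hold without the second ΔIEC line (0.52, adjusted p = 0.0203) or with summed lines (0.61, adjusted p = 0.0137), where the fl/fl value was at 0.00904.

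Ikbke (ENSMUSG00000042349.13, chromosome 1, 131254343 to 131279606, minus strand), the related kinase IKKε, was not called in any comparison. Its levels ran from 28.1 to 38.6 CPM over the 8 fl/fl cultures and from 29.0 to 42.5 CPM over the 8 ΔIEC cultures, and the groups overlapped throughout. The log2 fold change with IL-22 was 0.13 (95% interval -0.13 to 0.38, adjusted p = 0.464) in fl/fl and 0.25 (-0.01 to 0.50, adjusted p = 0.140) in ΔIEC organoids. The ΔIEC interval overlapped that of Tbk1 (0.38 to 0.82), and the 2 kinase genes were not tested against each other. Its exons share 159 and 65 bases with the opposite-strand transcripts Gm28914 and Gm28913, which had 84 and 72 counts over all cultures, and the strand setting of the counting was not given in the sources used here.

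Neither of the RNA sensors passed the threshold with IL-22, although the ΔIEC change of Ddx58 was near that of Tbk1 in size. Ddx58 (ENSMUSG00000040296.15, chromosome 4, 40203773 to 40239828, minus strand) had 19.0, 13.8, 10.9 and 10.7 CPM in untreated and 10.7, 9.11, 9.95 and 17.4 CPM in treated fl/fl cultures. In ΔIEC organoids it had 11.1, 14.5, 11.7 and 11.2 CPM untreated and 22.3, 13.9, 16.6 and 20.8 CPM treated, with 1 treated culture inside the untreated range. The log2 fold change was -0.24 (SE 0.23, adjusted p = 0.455) in fl/fl and 0.58 (SE 0.22, adjusted p = 0.0587) in ΔIEC organoids. These effects differed by 0.82 (95% interval 0.15 to 1.48), with an unadjusted p of 0.0182 and an adjusted p of 0.554. The fl/fl lines went in opposite directions, at 0.604-fold in the first and 1.27-fold in the second. Ifih1 (ENSMUSG00000026896.14, chromosome 2, 62595798 to 62646255, minus strand) went from 31.7 ± 3.70 to 35.8 ± 1.90 CPM in fl/fl (0.17, adjusted p = 0.355) and from 31.9 ± 5.64 to 41.4 ± 7.48 CPM in ΔIEC organoids (0.40, SE 0.14, adjusted p = 0.0358). Both genes hold the response element core printed above, and neither passed the threshold in any of the 5 comparisons.

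Mavs (ENSMUSG00000037523.13, chromosome 2, 131234063 to 131248025, plus strand), the adaptor of the RNA sensors, did not change with IL-22 past the threshold. Untreated fl/fl cultures had 53.5, 55.6, 56.2 and 53.8 CPM and treated ones 57.8, 58.9, 66.1 and 58.1 CPM, a small shift without overlap (log2 fold change 0.14, SE 0.10, adjusted p = 0.289). In ΔIEC organoids the levels were 46.0, 44.3, 51.1 and 40.3 CPM untreated and 36.5, 48.9, 34.5 and 41.7 CPM treated (-0.16, SE 0.11, adjusted p = 0.276). Irf3 (ENSMUSG00000003184.15, chromosome 7, 44997648 to 45002848, plus strand) had log2 fold changes of 0.26 (SE 0.14, adjusted p = 0.166) and 0.12 (SE 0.15, adjusted p = 0.596). The share of genes whose treated and untreated cultures did not overlap was 30.9% in fl/fl and 27.3% in ΔIEC organoids over all tested genes, and 4 of 8 (Tmem173, Zbp1, Tbk1 and Mavs) and 3 of 8 (Tmem173, Zbp1 and Tbk1) here.

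Trex1 (ENSMUSG00000049734.9, chromosome 9, 109057933 to 109059734, minus strand) was listed at 0 counts in all 16 cultures. A count of 0 allows up to 3 counts, which is 0.563 to 1.36 CPM depending on the library. All 1147 of its exon bases are shared with Atrip on the same strand, and Atrip itself had 14 counts over all cultures, and how reads on shared bases were assigned was not given in the sources used here. The level of Trex1 was therefore not measured by these counts. Mb21d1, the gene of cGAS, was not called in any comparison either. Its 4 groups averaged 12.4 ± 2.89 and 8.12 ± 3.59 CPM in fl/fl and 15.3 ± 2.45 and 12.4 ± 1.19 CPM in ΔIEC organoids, untreated and treated respectively. The log2 fold change with IL-22 was -0.60 in fl/fl (adjusted p = 0.0622) and -0.32 in ΔIEC organoids (adjusted p = 0.315), and its mean was lower with IL-22 in each of the 4 lines.

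**Figure D2:**
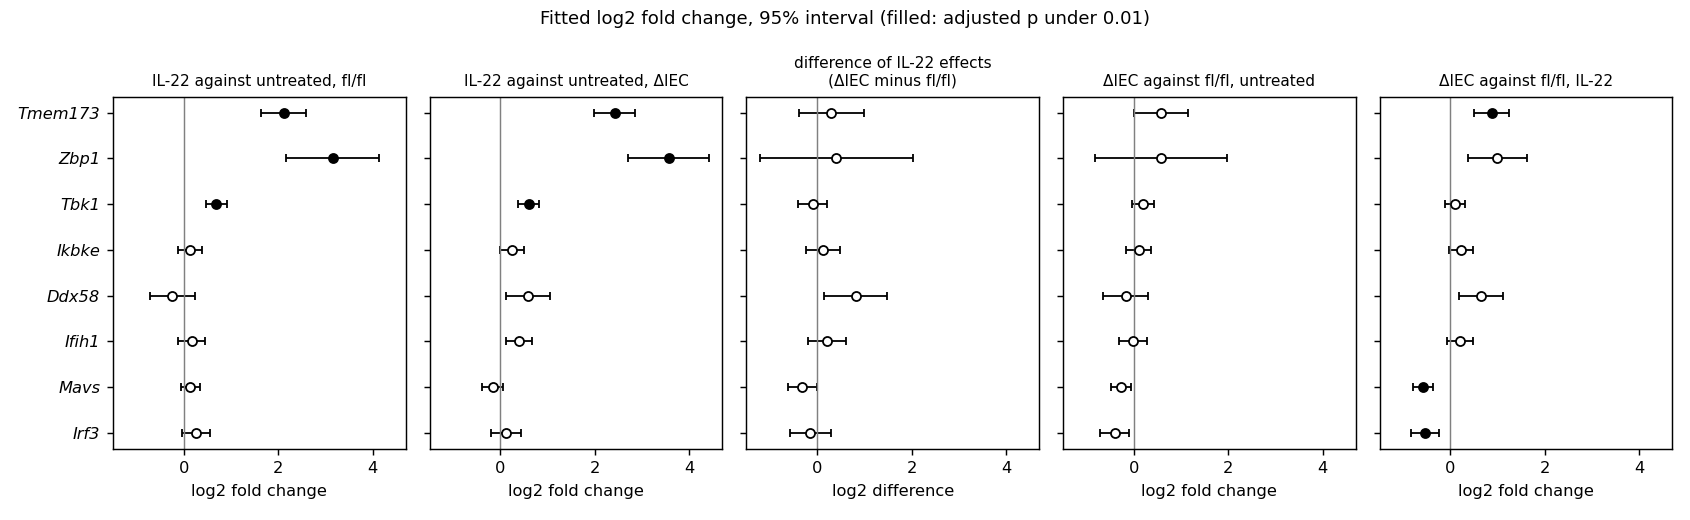
Fitted log2 fold changes of the 8 tested genes in the 2 IL-22 comparisons, the difference between them and the 2 genotype comparisons, with 95% intervals (filled points, adjusted p under 0.01). Tmem173, Zbp1 and Tbk1 are filled and to the right of 0 in both IL-22 panels, none is filled in the difference panel or in untreated organoids, and Tmem173 lies right and Mavs and Irf3 left of 0 between the IL-22–treated genotypes.

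The genotypes were next compared within each treatment. These comparisons use the same cultures as the IL-22 comparisons, and the line lies within the genotype, so that line and genotype are separated by only 2 lines on each side. In untreated organoids none of the 8 genes was called by edgeR or by DESeq2, where edgeR called 9.76% of all tested genes (3.78% higher and 5.98% lower in ΔIEC). The count at an unadjusted p under 0.05 was 3: Tmem173 (log2 fold change 0.57, adjusted p = 0.145), Mavs (-0.27, adjusted p = 0.0696) and Irf3 (-0.40, adjusted p = 0.0608). Mavs was the only gene whose untreated fl/fl and ΔIEC cultures did not overlap, as was the case for 23.3% of all tested genes. Irf3 alone passed when the first fl/fl line was left out (-0.62, adjusted p = 0.00518).

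After IL-22, Tmem173 was higher and Mavs and Irf3 were lower in ΔIEC than in fl/fl organoids. Over all genes, 9.91% were higher and 9.84% lower (19.8% in all), beside 1 and 2 of the 8. Tmem173 was 1.83-fold higher (log2 0.88, SE 0.18, adjusted p = 9.99e-04), with line means of 49.3 and 59.6 CPM in ΔIEC against 31.9 and 27.7 CPM in fl/fl organoids. Mavs was 0.671-fold (log2 -0.58, SE 0.10, adjusted p = 3.16e-04), with line means of 42.7 and 38.1 against 58.4 and 62.1 CPM. In both genes each ΔIEC line lay on the same side of each fl/fl line. The same held for every other tested member except Tbk1, so it does not set these genes apart. Its share over all genes was not computed. Treated cultures of the 2 genotypes did not overlap for 4 of the 8 genes (Tmem173, Zbp1, Mavs and Irf3), beside 29.6% of all tested genes. Irf3 was 0.688-fold (-0.54, SE 0.14, adjusted p = 0.00711), with treated cultures at 48.3, 46.0, 65.0 and 65.6 CPM in fl/fl and 35.2, 43.2, 35.4 and 41.1 CPM in ΔIEC organoids. For Irf3 the second fl/fl line was the higher one, at 65.3 against 47.2 CPM, and without it the difference was -0.27 (adjusted p = 0.128). Irf3 missed the threshold in 10 of 27 alternative settings, among them without the first or the second ΔIEC line (adjusted p = 0.0452 and 0.0429) and with an estimated correlation within lines in limma (adjusted p = 0.0111). Irf3 shares 88 exon bases with Bcl2l12 on the opposite strand, which had 723 counts over all cultures.

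With the cultures of each line summed, which leaves 2 against 2, none of these 3 differences passed, and of all 13871 genes tested 1.36% did: the adjusted p was 0.0283 for Tmem173, 0.0177 for Mavs and 0.109 for Irf3. Tmem173 also missed the threshold without the second ΔIEC line (0.71, adjusted p = 0.012) and without the second fl/fl line (0.76, adjusted p = 0.0183). Zbp1 was 1.99-fold higher in treated ΔIEC organoids without overlap between the cultures, and missed the threshold (log2 1.00, SE 0.30, adjusted p = 0.0144). Ddx58 was at 1.57-fold (0.65, adjusted p = 0.0281). Tbk1, Ikbke and Ifih1 stood at 0.11, 0.23 and 0.20 on the log2 scale, with adjusted p-values of 0.446, 0.146 and 0.246. The summed level of the immune markers was 10.8 to 13.8 CPM in treated ΔIEC and 13.3 to 19.2 CPM in treated fl/fl organoids, and its part in these differences was not tested.

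Because counts grow with transcript length, levels were compared between genes as CPM per kilobase of annotated exon. In untreated fl/fl organoids the order was Mavs (16.4), Irf3 (13.7), Tbk1 (9.36), Ifih1 (3.88), Ikbke (3.30), Tmem173 (2.45), Ddx58 (1.93) and Zbp1 (0.341 CPM per kb). The ranges of the 4 cultures overlapped for Mavs and Irf3, Ifih1 and Ikbke, and Tmem173 and Ddx58, and not for the other neighbours. Mavs, Irf3 and Tbk1 were thus more abundant per annotated length than the sensors, Ikbke and Tmem173. That length joins all annotated exons, at 9018 bases for Ikbke, 8165 for Ifih1 and 7050 for Ddx58. It was 3345 to 3910 bases for Mavs, Irf3 and Tbk1, and which transcripts were expressed was not determined. In CPM of untreated fl/fl organoids, Ikbke (29.7) and Ifih1 (31.7) were nearer to Tbk1 (36.6). With IL-22, Tmem173 moved from the sixth to the fourth place in fl/fl organoids (10.9 CPM per kb), below Tbk1 (15.0) and above Ifih1 (4.39) without overlap with either. Untreated ΔIEC organoids had Tmem173 at 3.92 CPM per kb, overlapping Ifih1 at 3.902. In treated ΔIEC organoids it came first at 19.9 CPM per kb, followed by Tbk1 (16.3), Mavs (12.1), Irf3 (11.2), Zbp1 (5.86), Ifih1 (5.07), Ikbke (4.21) and Ddx58 (2.61). The range of Tmem173 there overlapped those of Tbk1 and Mavs. Zbp1 went from 0.341 to 2.91 CPM per kb in fl/fl and from 0.592 to 5.86 CPM per kb in ΔIEC organoids, and no longer stood last of the 8 in either genotype. In treated fl/fl organoids its range overlapped that of Ddx58, the last.

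**Figure D3:**
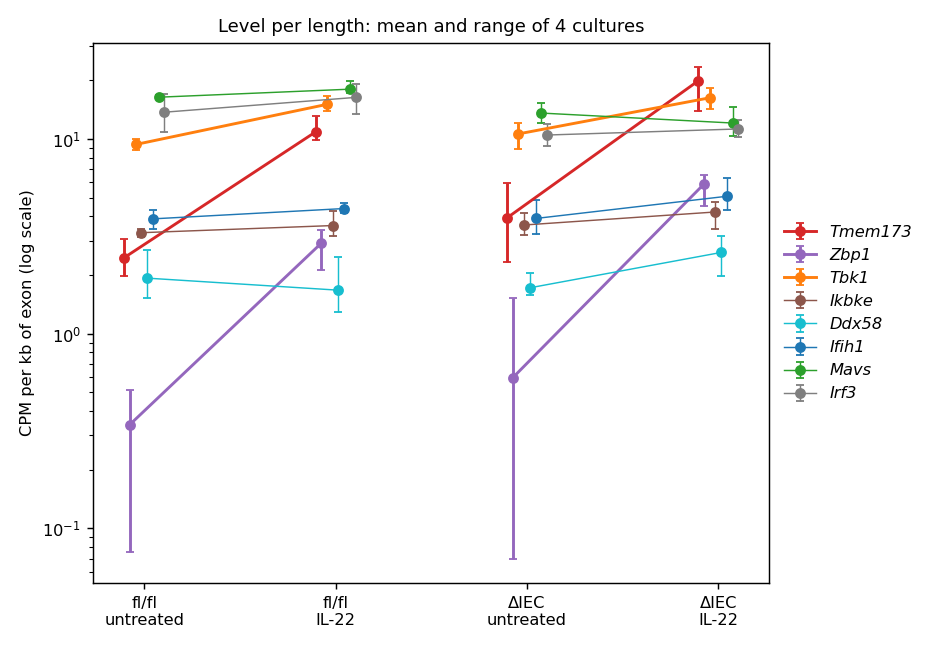
CPM per kilobase of exon (log scale) of the 8 counted genes in the 4 groups, as the mean and range of 4 cultures, with lines joining the untreated and treated group of a genotype. Tmem173 climbs from 2.45 to 10.9 in fl/fl and from 3.92 to 19.9 in ΔIEC organoids, where its mean exceeds those of Mavs and Irf3 and its range overlaps that of Mavs.

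The genes whose log2 CPM most resembled these profiles over the 16 cultures were found for each gene that passed in any comparison, as Pearson correlations that share the group differences and are given without a test. Tmem173 was closest to Lbp (r = 0.978), encoding a lipopolysaccharide-binding protein, then to Slc35a2 and Prss32 (both 0.971). Zbp1 was closest to Ubald2 (0.956), Duox2 (0.953), an epithelial NADPH oxidase, and Ppp1r14d (0.947). For Tbk1 the order was 6530402F18Rik (0.963), Nsf (0.958) and Hif1a (0.946). Mavs was closest to Slc30a9 (0.910), Wdr55 (0.902) and Gripap1 (0.880), and Irf3 to Ip6k2 (0.952), Tcf25 (0.933) and Atxn2l (0.915).

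Other genes of the pathway were read from 9 lists. Over all tested genes, 20.8% were called with IL-22 in fl/fl and 17.5% in ΔIEC organoids, 9.76% between untreated and 19.8% between treated genotypes. The list counts stand beside these shares. In fl/fl organoids with IL-22, STING and MAVS control (5 of 22), nucleic acid removal (4 of 18), and interferons and receptors (2 of 9) were near the share of all genes. Adaptors of TBK1 (2 of 14) were below it. In ΔIEC organoids, adaptors of TBK1 (1 of 14), DNA sensing (2 of 15), and interferons and receptors (1 of 9) were below it. Between treated genotypes, STING and MAVS control (3 of 22) and adaptors of TBK1 (2 of 14) were below it. Such counts are no result about these lists, and the remaining counts follow below. Among the partners of ZBP1 and the necroptosis genes, 7 of 9 rose with IL-22 in both genotypes and none fell (median log2 fold change 0.63 in fl/fl and 0.70 in ΔIEC organoids). They were Ripk1, Ripk3, Mlkl, Casp8, Cflar, Tnf and Tnfrsf1a. Ripk3, the kinase that ZBP1 engages, rose from 66.3 ± 4.06 to 231 ± 36.4 CPM in fl/fl (1.80, adjusted p = 7.14e-09) and from 53.8 ± 7.55 to 137 ± 27.6 CPM in ΔIEC organoids (1.37, adjusted p = 4.12e-07). Mlkl, the pore-forming effector of necroptosis, rose from 11.3 ± 2.16 to 21.97 ± 3.85 CPM and from 17.03 ± 1.98 to 50.2 ± 8.19 CPM. Between treated genotypes these went in opposite directions, with Mlkl higher (1.21, adjusted p = 8.71e-06) and Ripk3 lower (-0.76, adjusted p = 2.16e-04) in ΔIEC organoids, and Casp8, the protease that restrains necroptosis, lower as well (-0.43, adjusted p = 0.00199). None of the 9 was called between untreated genotypes by edgeR or DESeq2 (3 at an unadjusted p under 0.05).

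The DNA sensing list had 1 gene higher and 3 lower of 15 in fl/fl and 1 higher and 1 lower in ΔIEC organoids with IL-22. Lrrfip1, a nucleic acid–binding protein, was the one that rose in both (0.94 and 0.88). Hmgb1 and Hmgb2, chromatin proteins that also bind DNA outside the nucleus, and the DNA repair nuclease gene Mre11a fell in fl/fl organoids (-0.54, -0.63 and -0.64). All 3 were among the 4 of 15 that were higher in ΔIEC than in fl/fl organoids after IL-22 (0.60, 0.82 and 0.74). The fourth was Dhx9, an RNA and DNA helicase (0.48). In untreated organoids Dhx9 was the only one called (0.52, adjusted p = 7.42e-04). There 7 of the 15 had an unadjusted p under 0.05 and 11 were positive. Their median log2 difference was 0.26 untreated and 0.42 after IL-22, beside -0.02 and 0.01 for all tested genes. With summed lines 0 of the 15 were called in either genotype comparison.

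Of 12 other RNA sensing genes, 5 rose and 2 fell in fl/fl, and 4 rose and 1 fell in ΔIEC organoids. Trim25, a ubiquitin ligase acting on RIG-I, rose in both (0.50 and 0.60), and Nlrp6, an intestinal inflammasome sensor, fell in both (-0.93 and -0.83), from 359 ± 17.5 to 188 ± 15.1 CPM and from 316 ± 16.8 to 178 ± 16.2 CPM. Dhx58, encoding LGP2, a regulator of RIG-I and MDA5, rose in ΔIEC organoids from 3.14 ± 0.748 to 10.0 ± 2.58 CPM (1.61, adjusted p = 3.19e-04). No gene of this list was called between untreated genotypes by edgeR or DESeq2 (5 at an unadjusted p under 0.05), and after IL-22 Rnf135 was higher (1.04) and Mex3c lower (-0.51) in ΔIEC organoids.

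Genes that control STING and MAVS were split, with 3 higher and 2 lower of 22 in fl/fl (5 and 3 with the line as a block, none with summed lines) and 4 higher and 3 lower in ΔIEC organoids. The autophagy receptor genes Sqstm1 (1.10 and 0.71) and Tax1bp1 (0.56 and 0.84) rose in both, and the autophagy kinase gene Ulk1 fell in both (-0.45 and -0.56). Between genotypes 1 gene was higher untreated and 2 were higher and 1 lower after IL-22, with Atg9a at -0.71 the furthest from 0 among those called. Among adaptors of TBK1 and related kinases, Myd88, the adaptor of Toll-like receptors, rose in both genotypes (0.71 and 1.01), and Ticam1 in fl/fl organoids (0.45), of 14 tested. Between untreated genotypes Myd88 (0.54) and Dtx4 (0.50) were higher and Optn lower (-0.38) in ΔIEC organoids, and after IL-22 Myd88 was higher (0.84) and Ticam1 lower (-0.54). Of 18 genes that remove or edit nucleic acids, 3 rose and 1 fell in fl/fl and 4 rose and 1 fell in ΔIEC organoids. Adar, which edits double-stranded RNA, rose in both genotypes (0.51 and 0.68). Trex2, a relative of Trex1, rose in ΔIEC organoids from 2.45 ± 0.519 to 6.77 ± 1.64 CPM (1.45, adjusted p = 8.97e-04). Between genotypes 2 were higher and 1 lower untreated, and 4 higher and 1 lower after IL-22, with Rnaseh2c, a subunit of ribonuclease H2, higher in ΔIEC organoids in both (0.48 and 0.55).

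Downstream of the sensors, 6 of 15 IRF, STAT and NF-κB factors rose and 1 fell in fl/fl, and 9 rose and 1 fell in ΔIEC organoids. Stat3 rose from 79.6 ± 10.8 to 204 ± 7.25 CPM and from 69.6 ± 5.98 to 191 ± 18.3 CPM, and Batf2, a basic leucine zipper factor, by 1.08 and 1.67 on the log2 scale. Irf7, the interferon-induced relative of Irf3, was at 16.1 ± 6.47 and 18.5 ± 0.856 CPM in fl/fl and rose from 15.1 ± 4.88 to 42.0 ± 10.1 CPM in ΔIEC organoids (1.501, adjusted p = 8.16e-05). The difference of its IL-22 effects was 1.32 (SE 0.35), with an unadjusted p of 0.00121 and an adjusted p of 0.301. Between genotypes Nfkb1 was called untreated (0.38), and after IL-22 Irf7 was higher (1.18) and Irf8 lower (-0.31) in ΔIEC organoids. Ifnb1, Ifna1, Ifna2, Ifna4, Ifnl2, Ifnl3 and Ifng had 0 counts in all cultures, and Ifnk and Ifne at most 1. Of 9 tested receptor and signalling genes, Il22ra1, a subunit of the IL-22 receptor, rose in both genotypes (0.49 and 0.58) and Ifngr2 fell in fl/fl organoids (-0.44). With the line as a block 3 were called in each genotype, and with summed lines 0, while none was called between genotypes by edgeR or DESeq2 (1 untreated and 2 treated at an unadjusted p under 0.05).

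A list of interferon-stimulated genes, named interferon-stimulated output, was read as well. Whether the sensing pathway changed these genes was not tested. With IL-22, 0 of 10 tested genes were called in fl/fl organoids by edgeR and by DESeq2 (4 at an unadjusted p under 0.05, and an adjusted p of 0.0269 for Oasl2, the smallest) and 4 in ΔIEC organoids: Isg15, Rsad2, Oasl2 and Ifit1. With the line as a block these counts were 1 and 6, and with summed lines 0 and 3. Isg15, a ubiquitin-like protein, was at 0.967 ± 0.842 and 2.56 ± 1.12 CPM in fl/fl and at 3.38 ± 1.30 and 16.5 ± 7.29 CPM in ΔIEC organoids. After IL-22, 8 of the 10 were higher in ΔIEC than in fl/fl organoids, with a median log2 difference of 1.69, beside 0.01 for all genes. The share higher over all tested genes was 9.91%. The list held 19 genes, and a gene could pass the filter on low counts through 1 group alone. Isg15 had 37 to 91 counts in treated ΔIEC cultures and at most 18 elsewhere, and Rtp4 had 14 to 38 and at most 16. The count of 8 and the median thus describe the genes that passed and are not a test of the list. Untreated, edgeR called 1 of the 10 (Ifit2) and DESeq2 2, while the median log2 difference was 1.42, 8 of 10 were positive and 8 had an unadjusted p under 0.05. None of the 124 tested genes of the 9 lists and none of the 8 members had a genotype difference in the IL-22 effect past the threshold by edgeR, which called 2 of the 12559 genes (0.0159%, with 0.00796% in each direction) and 15 positive and 41 negative differences with the organoid line as a block, 2 and 3 with an estimated correlation within lines (limma), and 0 with summed lines. DESeq2 gave no adjusted p for any of the 8 members in this comparison. At an unadjusted p under 0.05 that difference held for 912 of all genes, 16 of the 124, and 2 of the members, Ddx58 and Mavs. With the cultures of a line summed, the number of list genes called went from 38 to 9 with IL-22 in fl/fl, from 42 to 16 in ΔIEC, from 30 to 5 between treated and from 10 to 0 between untreated genotypes. Over all genes the number called in these comparisons fell likewise, to 543, 635, 188 and 10 of 13871 (3.91%, 4.58%, 1.36% and 0.0721%).

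**Figure D4:**
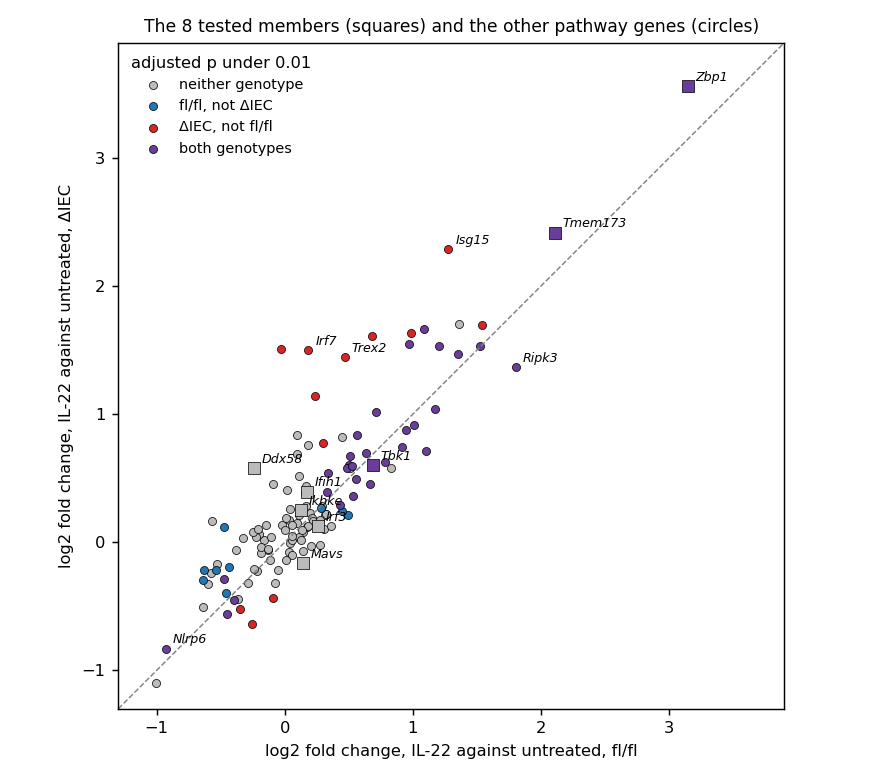
Log2 fold change with IL-22 in fl/fl (horizontal) and ΔIEC organoids (vertical) of the 8 tested members (squares) and the tested genes of the 9 pathway lists (circles), coloured by the genotype in which the adjusted p was under 0.01, with a dashed line of equal change. Zbp1 and Tmem173 lie furthest out on both axes near the line, and Isg15, Irf7 and Trex2 lie above it.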

How the data were processed

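Organoids were grouped by genotype and treatment from the sample labels. Per the submitters' processing notes, the authors trimmed reads with cutadapt, aligned them to GRCm38 (mm10) with TopHat2 and deposited whole-number read counts per gene from HTSeq, without normalization. Versions, annotation release and strand setting were not given in the sources used here, and the labels name a TruSeq RNA v2 kit where the paper names a stranded total RNA protocol. Lines of the table that name no gene held 61.7% to 63.7% of reads and were left out. Of 49585 identifiers, 49326 were matched to symbols without version in GENCODE M21, which also gave exon lengths.

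Counts were scaled by TMM and tested in R 4.3.3 with edgeR 4.0.16 (filterByExpr, 12559 genes, quasi-likelihood, 1 fit of the 4 group means, two-sided, Benjamini-Hochberg over all genes per comparison, adjusted p under 0.01). The standard error was the absolute log2 fold change over the square root of F, and intervals are 95%. Log2 CPM used a prior count of 2. Floors for counts of 0 cover counting error only. On counts simulated from these libraries for IL-22 in ΔIEC organoids (12371 genes), 8 of 49 changes of 0.5 (log2), 35 of 47 of 1 and 49 of 50 of 2 were recovered with 0 false calls. As genotype differences of the IL-22 effect, 3 of 49, 30 of 47 and 42 of 50 were recovered with 1 false call.

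Exact two-sided permutation tests of log2 CPM between groups of 4, over 32 comparisons of single genes, cannot go below p = 0.0286. The smallest adjusted value was 0.0762, so that none passed on its own.

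Members and lists were chosen with earlier results of these data known. The text names the 9 members, Atg16l1, Mb21d1, and from each list up to 4 called genes with the greatest absolute log2 fold change per comparison (otherwise the gene with the smallest p), and the 3 genes most correlated with each called member. Ifih1 and Ddx58 stretches were chosen for their motif. Ripk1, Cflar and Tnfrsf1a were added after their values were seen, as were the untested interferon genes. Pairing by line, from the label numbers, was checked across genes by correlating deviations from group means. These correlated at 0.26 to 0.44 within fl/fl lines and at 0.06 to 0.32 within ΔIEC lines, against -0.43 to -0.08 between lines. Deviations of a group sum to 0, so the negative values between lines mirror those within lines and are no separate evidence. Each line has 1 genotype, and a line block was therefore fitted only to IL-22 effects and their difference. Alternatives were 28 settings, with limma 3.58.1 and DESeq2 1.42.0 among the tools. Some named genes are not reported here.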

Additional observations from a re-analysis of the deposited data

Results flagged for a closer look

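In IL-22–treated fl/fl organoids, Mavs in culture 3 (66.1 CPM) lay apart from the other 3 cultures (57.8 to 58.9 CPM): the gap to its neighbour was 0.861 of the whole range of the group on the log2 scale, above Dixon's 95% critical value for 4 samples. It was 1 of 32 groups examined, and chance alone marks about 1 group in 20. Without that culture the genotype difference of Mavs after IL-22 was -0.52 on the log2 scale (adjusted p = 0.00205).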

How the results depend on the processing

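The number of members called with IL-22 was 3 in both genotypes and stayed at 2 or 3 in all settings that kept every culture (2 with summed lines, which lost Zbp1 in fl/fl and Tbk1 in ΔIEC, and 2 with at least 10 counts in every culture, where Zbp1 was not tested), and at 3 (fl/fl) and 2 to 4 (ΔIEC) when a culture or line was left out. With the organoid line as a replicate block it was again 3 and 3, the same genes, and 0 for the genotype difference of the IL-22 effect. For Tmem173 the blocked log2 fold changes were 2.13 and 2.41. The block moved list counts by over 1.5 times only for STING and MAVS control in fl/fl (8 in place of 5) and for interferons and receptors in ΔIEC organoids (3 in place of 1), and gave interferon-stimulated output in fl/fl 1 in place of 0 (6 in place of 4 in ΔIEC). Over all genes it called 15 positive and 41 negative differences of the IL-22 effect in place of 1 and 1, while summing the lines called 0 and an estimated correlation within lines 2 and 3. Between genotypes, the count was 3 after IL-22 and became 5 with no filter on low counts (Zbp1 and Ddx58 added) and 0 after summing the cultures of each line, and ranged from 2 to 4 with a culture or line left out. Untreated it was 0, with a range of 0 to 1 (1 without fl/fl line 1). With at least 10 counts in every culture, which tests fewer genes, interferon-stimulated output fell to 1, 0 and 1 called genes (IL-22 in ΔIEC, genotype untreated, genotype after IL-22), and RNA sensing after IL-22 to 1.

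Signs changed only for values that were not called. Ifih1 between untreated genotypes turned to 0.0040 with no filter, and ranged from -0.13 to 0.13 with 1 culture or line left out. Other ranges on leaving out a culture or line that crossed 0 were -0.74 to 0.32 for Ddx58 with IL-22 in fl/fl, -0.029 to 0.23 for Irf3 with IL-22 in ΔIEC, -0.78 to 2.24 for the genotype difference of the IL-22 effect on Zbp1, -0.41 to 0.18 for Ddx58, -0.017 to 0.27 for Ikbke and -1.16 to 1.66 for Zbp1 between untreated genotypes, and -0.017 to 0.21 for Tbk1 between treated genotypes. The cause was not tested. At this depth Zbp1 rests on 1 to 13 counts per untreated culture.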
